A study of Danio rerio with 2 samples.

Results

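Chromatin remodelling genes were taken from the deposited expression table by gene name, as rows whose name begins with smarc, arid1, arid2, chd, ino80, brd, pbrm1, baz, bptf, ep400, srcap, hells, atrx, mta, mbd2, mbd3, rbb4 or rbbp4 (with a digit after chd, brd, baz and mta). This gave 68 of 32105 genes, 23 of them ATPases, and they were sorted by name into SWI/SNF (20 genes), ISWI (7), CHD and NuRD (19), INO80 and SWR (10), ATPases outside these families (5) and bromodomain genes that are not remodeller subunits (7). The RNA came from cells sorted from zebrafish (Danio rerio) embryos at 22 hours post fertilization for a gata1-EGFP transgene, in which the gata1 promoter, active in red cell precursors, drives a green fluorescent protein. One group carried an *add1* knockout and the other was wild-type siblings, and both carried the reporter; the labels name the cells erythroblasts. Each genotype was 1 library, and how many embryos went into it is not given in the sources used here.

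Chromatin remodellers use ATP to slide, evict or exchange nucleosomes, the units of DNA wound on histones. SWI/SNF complexes open DNA at enhancers and promoters, ISWI complexes space nucleosomes evenly, the NuRD complex of the CHD family joins remodelling to histone deacetylation, and INO80 and SWR complexes exchange the histone variant H2A.Z. In mouse embryos the SWI/SNF ATPase Smarca4 is needed in blood cells for normal red cell development, and the GATA1 cofactor FOG1 recruits NuRD. In humans, mutations of *ATRX* cause a form of alpha-thalassaemia.

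The libraries held 5956344 (mutant) and 6157792 (sibling) counts, and levels are counts scaled to these totals and given in the usual unit CPM or, between genes, the authors' FPKM, which also divide by gene length. *add1* itself had 18 mutant counts and 1166 sibling counts, 3.02 against 189 CPM. With 1 library per genotype there is no replicate check and no p-value, the differences are between these libraries, and a difference between preparations cannot be told apart from genotype. Paired values give the mutant library first unless stated. Folds are ratios of CPM and carry exact 95% intervals that cover counting error only. In a mixed sample fewer cells of a type and less RNA per cell cannot be told apart.

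Few of the measured remodelling genes differed widely between the libraries, and *smarcad1b*, 2.04-fold higher by CPM, was the one past 2-fold before any CPM was added. To count as measured a gene needed 10 CPM in at least one of the libraries, which 58 of the 68 had, and ratios were held against the fold rules after adding 1 CPM to both levels. By these rules 0 of 58 had a mutant level lower by 2-fold or more, as 2.56% of all 9672 measured genes had, and 0 had one higher by 2-fold or more, as 10.1% of all genes had. At 1.5-fold, 5 were lower against a background of 8.17%, and 5 higher against 21.5%. The 5 lower were *hells*, *smarcad1a*, *rbbp4*, *ino80db* and *chd1l*, and the 5 higher were *smarcb1b*, *smarcad1b*, *mbd3b*, *ino80e* and *ino80b*. Of these *smarcad1b* reached 10 CPM in the mutant library only. With 10 CPM required in both libraries 55 members stayed, of which 5 were at least 1.5-fold lower and 4 higher. The shares of all genes under that minimum are not given here.

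The remodelling genes lay below the middle of all measured genes as a group. Their median log2 ratio, mutant over sibling, was -0.12, and that of all measured genes was 0.13. Of the 58, 32 were lower in the mutant library (55.2%), against 39.2% of all measured genes, and 41 were below the median of all measured genes. With FPKM in place of CPM, where 33 members reached the minimum, their median was 0.05. The FPKM ratio of a gene between the libraries was nearly the same as its CPM ratio. The change of median thus followed mainly from which genes reached the minimum. Scaling by TMM, which corrects for a few very abundant genes, shifted the median of all genes by -0.20. Under it 43 of 58 members were lower (74.1%) against 55.1% of all genes, 9 were at least 1.5-fold lower against 14.8%, and 3 at least 1.5-fold higher against 15.2%. *hells* then passed the 2-fold rule as well, as 4.34% of all genes did. Of the 58 members, 47 had the same direction under all 4 scalings tried, and 11 did not. Under all 4, the counting interval lay below 1 for 21 members (36.2%, against 21.9% of all measured genes) and above 1 for 10 (17.2%, against 26.6%). The other scalings move every ratio down, so a gene lower by library totals, or with its interval below 1, must stay so. Intervals above 1 could be lost, and by library totals they numbered 16 (27.6%, against 40.0%).

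Relative to the median of all measured genes, the median log2 ratio was -0.08 for CHD and NuRD genes, -0.11 for SWI/SNF, -0.26 for ISWI and -0.33 for INO80 and SWR. It was -0.64 for the ATPases outside these families and -0.32 for the other bromodomain genes. With FPKM the INO80 and SWR value turned to 0.52 over 3 genes, as *ino80*, *ep400*, *srcap*, *ino80db* and *brd8* did not reach the minimum. These are descriptions of small lists, and no test between complexes was possible. From its lowest to its highest gene, each family spanned more than the family medians differed, as the plot of members by complex shows. The interquartile ranges of most families were narrower than that difference, which includes the -0.64 of the ATPases outside these families. Among SWI/SNF, ISWI, CHD and NuRD, and INO80 and SWR alone, each interquartile range was wider than the medians differed.

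**Figure D1:**
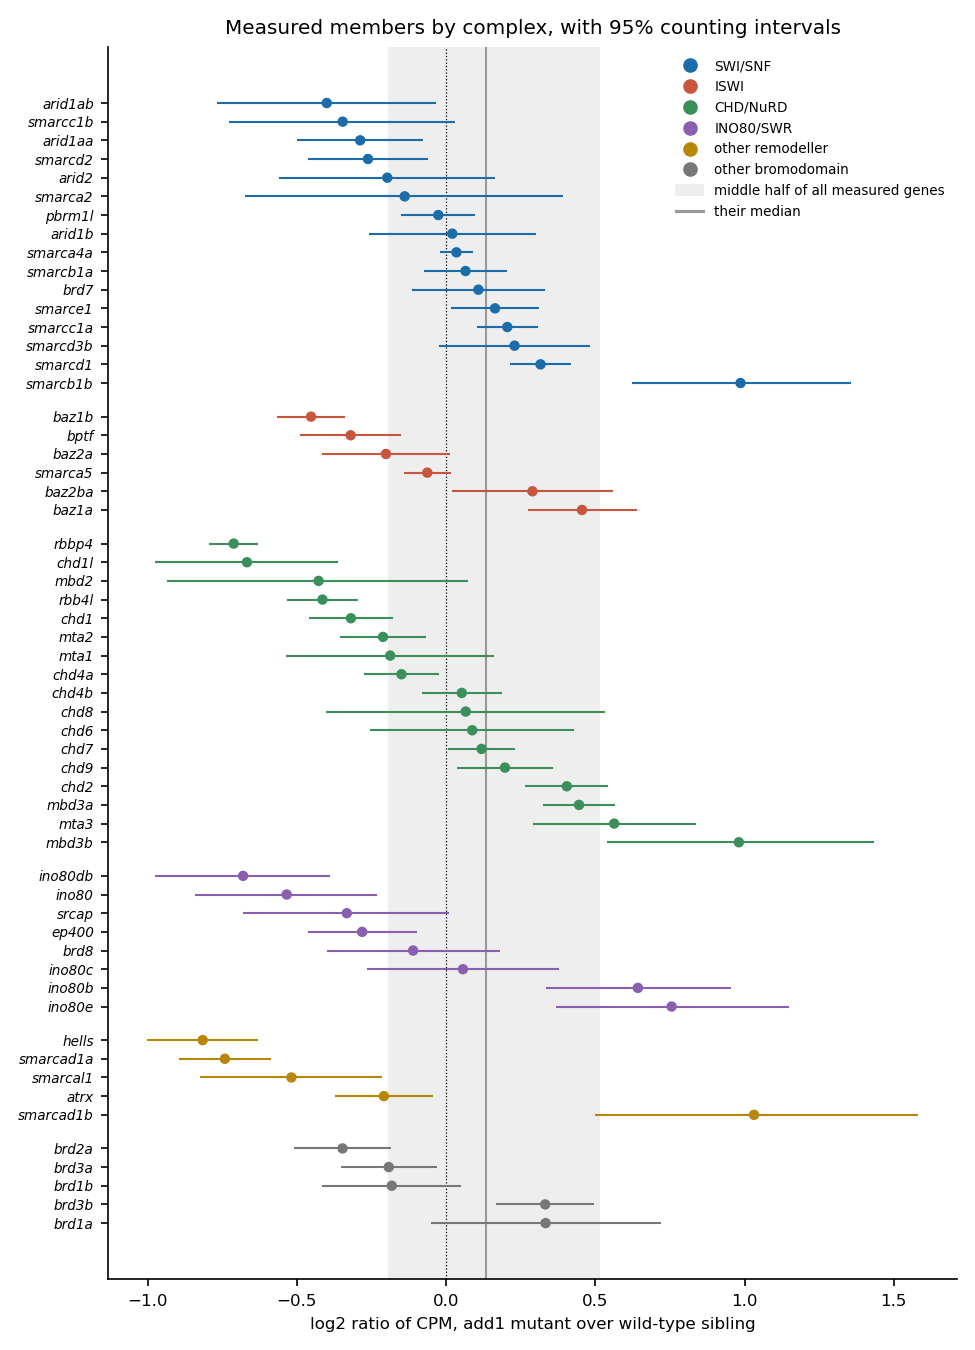
Log2 ratio of CPM, mutant over sibling library, for 57 of the 58 measured members grouped by complex; points are ratios, bars exact 95% counting intervals, the grey band spans the interquartile range of all 9672 measured genes and the grey line their median of 0.13. The members run from *hells*, 1.76-fold lower, to *smarcad1b*, 2.04-fold higher.

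SWI/SNF held the most abundant ATPase gene of the sorted cells, at nearly the same level in both libraries. *smarca4a* (chromosome 3, 19096064 to 19132138, GRCz10), the central SWI/SNF ATPase, had 5387 mutant counts and 5436 sibling counts. This was 904 against 883 CPM, a ratio of 1.02 (0.986 to 1.06), and its direction turned with TMM scaling. Per length it was at 159 and 155 FPKM, rank 388 among all genes in the sibling library, and it made up 32.7% of the summed FPKM of the 23 ATPase genes there and 35.9% in the mutant library. *smarca2*, the alternative ATPase of the same complexes, was at 1.19 and 1.31 FPKM, with 58 and 66 counts.

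The subunits shared by SWI/SNF complexes went in both directions. *smarcb1a*, which encodes a core subunit that grips the nucleosome, was at 140 against 134 CPM, 1.05-fold (0.949 to 1.15). *smarcc1a*, which encodes a scaffold of the complex, was at 275 against 238 CPM, 1.15-fold higher (1.07 to 1.24), and *smarce1*, an HMG-box subunit, at 134 against 120 CPM, 1.12-fold higher (1.01 to 1.24). *smarcc1b*, the paralog of *smarcc1a*, was at 17.6 against 22.4 CPM, with an interval that held 1. With TMM *smarcc1a* was level and *smarce1* lower by 0.04 on the log2 scale. *smarcd1* was at 285 against 228 CPM, 1.25-fold higher (1.16 to 1.34), and its interval stayed above 1 under all 4 scalings. *smarcd2*, whose human counterpart is required for neutrophil granules, went the other way, at 62.5 against 74.9 CPM (1.2-fold lower, 1.04 to 1.38). *smarcd3b*, of another paralog group, was at 46.8 against 39.9 CPM, with an interval that held 1 (0.984 to 1.40).

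Among the members, the ARID1 and PBAF subunits that set the type of SWI/SNF complex were lower or level. The ARID1 subunits define the BAF form: *arid1aa* was at 56.4 against 68.9 CPM (1.22-fold lower, 1.06 to 1.41) and *arid1ab* at 18.5 against 24.4 CPM (1.32-fold lower, 1.02 to 1.70), while *arid1b* was at 35.6 against 35.1 CPM. The PBAF form contains ARID2, PBRM1 and BRD7. For it *arid2* was at 19.98 against 22.9 CPM, *pbrm1l* at 173 against 176 CPM and *brd7* at 57.2 against 53.1 CPM, and all 3 intervals held 1. Most polybromo transcript came from *pbrm1l*, at 19.5 and 19.9 FPKM, while *pbrm1* had 6 counts in each library.

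Of the 16 measured SWI/SNF genes, *smarcb1b* alone passed 1.5-fold. *smarcb1b* (chromosome 21, 15496449 to 15522800), the second gene for the SMARCB1 subunit, had 184 mutant counts and 96 sibling counts. Its level was 30.9 against 15.6 CPM, 1.98-fold higher (1.54 to 2.56). Per length it remained well below its relative, at 7.5 FPKM against 74.3 for *smarcb1a* in the mutant library. *smarcd3a*, the paralog of *smarcd3b*, was also higher, with 43 against 18 counts (7.22 against 2.92 CPM, 2.47-fold, 1.39 to 4.55), but it did not reach the minimum for a measured gene. Most transcript of this pair came from *smarcd3b*, at 21.7 and 18.5 FPKM against 1.45 and 0.588 for *smarcd3a*.

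ISWI genes were led by 1 ATPase. *smarca5* (chromosome 1, 52157701 to 52186216), the ISWI motor needed for blood progenitors in mice, had 2495 and 2694 counts. Its level was 419 against 437 CPM, 1.04-fold lower with an interval that held 1 (0.989 to 1.1). At 113 and 118 FPKM it supplied 25.4% of all ATPase FPKM in mutant cells and 24.8% in sibling cells, so that *smarca4a* and *smarca5* were the leading remodelling ATPase genes in both. *smarca1*, its relative, was at 0.876 and 1.49 FPKM, with 29 and 51 counts.

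The partners that give ISWI its different complexes differed in direction. *baz1b*, whose product joins SMARCA5 in the WICH complex at replicating chromatin, was at 177 against 242 CPM, 1.37-fold lower (1.26 to 1.48). *baz1a*, of the nucleosome-spacing ACF complex, was at 96.9 against 70.6 CPM, 1.37-fold higher (1.21 to 1.56). *bptf*, the large subunit of NURF, was at 86.8 against 108 CPM, 1.25-fold lower (1.11 to 1.40). All 3 kept their side of 1 under all 4 scalings, which for *baz1b* and *bptf* follows from the downward shift of the other scalings. *baz2a*, of the ribosomal DNA silencing complex NoRC, was at 56.1 against 64.5 CPM, and *baz2ba* at 42.5 against 34.8 CPM. The ratio of FPKM between *baz1a* and *baz1b* was 0.416 in the sibling and 0.781 in the mutant library.

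**Figure D2:**
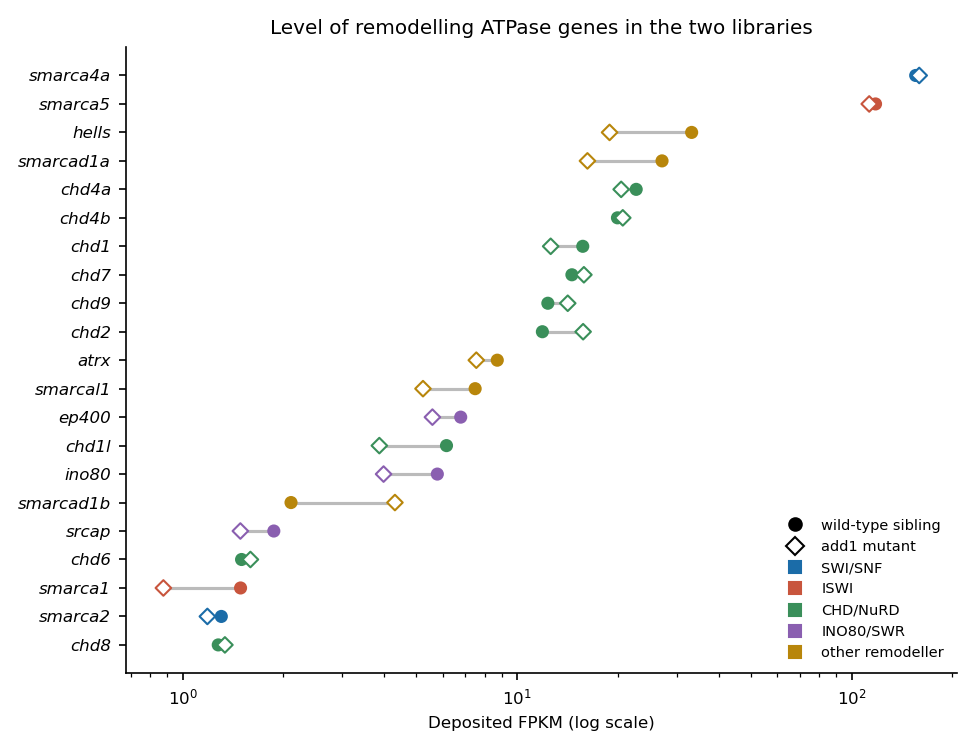
Deposited FPKM (log axis) of remodelling ATPase genes in the sibling (filled circles) and mutant (open diamonds) library, coloured by family, in order of the sibling level; *chd3* and *chd5*, with 0 counts in the sibling library, are left out. *smarca4a* (159 and 155 FPKM, mutant first) and *smarca5* (113 and 118) stand above the rest, and the gap is widest for *smarcad1b*, followed by *hells*, *smarca1* and *smarcad1a*.

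Among CHD ATPases, *chd4a* and *chd4b*, the NuRD motors, were present at similar levels, 22.7 and 19.95 FPKM in the sibling library. *chd4a* was at 162 against 179 CPM, 1.11-fold lower (1.02 to 1.21), and *chd4b* at 152 against 147 CPM with an interval of 0.945 to 1.14. The other NuRD-type ATPase genes, *chd3* and *chd5*, had 1 mutant count each and 0 sibling counts, where a count of 0 allows up to 0.487 CPM.

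The remaining NuRD subunits split in both directions. *rbbp4* (chromosome 19, 31412520 to 31420104), which encodes a histone-binding protein shared by NuRD, the chromatin assembly factor CAF-1 and other complexes, had 1968 mutant counts and 3331 sibling counts. It was the remodelling gene with the highest FPKM in the sibling library, at 223 against 136 in the mutant, and 1.64-fold lower by CPM (1.55 to 1.73). Its relative *rbb4l* was at 171 against 228 CPM, 1.33-fold lower (1.23 to 1.45). *mta2* was 1.16-fold lower (1.05 to 1.28), at 121 against 140 CPM, and *mta1* was at 21.8 against 24.8 CPM. *mta3*, at 45.8 against 31.0 CPM, was 1.48-fold higher (1.22 to 1.79). The MTA proteins are alternative scaffolds of the same complex.

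MBD2 and MBD3 exclude each other from NuRD, and only MBD2 binds methylated DNA strongly in mammals. *mbd3a* was at 222 against 163 CPM, 1.36-fold higher (1.25 to 1.48). *mbd3b* (chromosome 22, 20267550 to 20284447) had 126 against 66 counts and was 1.97-fold higher (1.45 to 2.70), at 21.2 against 10.7 CPM. A separate gene name table gives the symbol *mbd3b* to a neighbouring gene instead, which had 4 and 3 counts. *mbd2* was at 9.91 against 13.3 CPM, with an interval that held 1. By FPKM *mbd3a* was the leading MBD gene, at 102 and 75.2, against 5.48 and 7.36 for *mbd2*.

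Of the 7 CHD genes outside NuRD, 2 were lower (28.6%, against 39.2% of all measured genes) and 5 higher, and 5 lay below the median of all measured genes. *chd7*, the gene mutated in human CHARGE syndrome, was at 227 against 209 CPM, and *chd9* at 111 against 96.6 CPM. *chd6* was at 24.7 against 23.2 CPM and *chd8* at 13.4 against 12.8 CPM. With TMM all 4 were lower than in the sibling library, *chd7* by 0.08 on the log2 scale. *chd2* was 1.32-fold higher (1.20 to 1.46), at 163 against 123 CPM, and *chd1*, which travels with RNA polymerase in elongation, 1.25-fold lower (1.13 to 1.38), at 124 against 154 CPM. *chd1l*, a remodeller that DNA damage activates through poly(ADP-ribose), was 1.59-fold lower (1.29 to 1.97), with 145 against 238 counts.

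In the INO80 and SWR group the 3 ATPase genes had lower levels, 2 of them with intervals below 1. Of the 5 other measured genes, 2 had intervals above 1 (40.0%, the same share as of all measured genes), 1 had an interval below 1, and 2 had intervals that held 1. Among all measured genes 39.2% were lower and 21.9% had intervals below 1. *ino80* (chromosome 20, 28370513 to 28453262), the INO80 motor, was at 25.4 against 36.7 CPM, 1.45-fold lower (1.17 to 1.79). *ep400*, the motor of the p400 complex, was at 74.7 against 90.8 CPM, 1.22-fold lower (1.07 to 1.38). *srcap*, the SWR motor, was at 21.2 against 26.6 CPM, 1.26-fold lower, with an interval of 0.992 to 1.60 that held 1. Together the 3 had a summed level of 121 against 154 CPM, a ratio of 0.787 (0.713 to 0.867).

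The INO80 accessory subunits went apart. *ino80db* was at 26.4 against 42.2 CPM, 1.60-fold lower (1.31 to 1.97). *ino80b* was at 36.8 against 23.5 CPM, 1.56-fold higher (1.26 to 1.94), and *ino80e* (ENSDARG00000022939) at 24.7 against 14.6 CPM, 1.69-fold higher (1.29 to 2.22). A second row named *ino80e* next to it on chromosome 16 had 19 and 15 counts. *ino80c* was at 27.5 against 26.5 CPM, and *brd8*, a bromodomain subunit of the p400 complex, at 31.9 against 34.4 CPM. *ino80da* had 13 and 5 counts and was not measured.

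Of all measured members, the lowest fold was that of *hells*, an ATPase outside the main families. *hells* (chromosome 13, 7923083 to 7938695), whose product opens chromatin for the maintenance of DNA methylation, had 370 mutant counts and 673 sibling counts. It was at 62.1 against 109 CPM, 1.76-fold lower (1.55 to 2.0). *smarcad1a* (chromosome 8, 29626736 to 29643183), whose human counterpart restores silent chromatin after replication, had 547 against 945 counts. It was at 91.8 against 153 CPM, 1.67-fold lower (1.5 to 1.86). *smarcad1b* (chromosome 10, 17595299 to 17630398) had 89 against 45 counts and was 2.04-fold higher (1.41 to 3.0), at 14.9 against 7.31 CPM, a ratio below 2-fold once 1 CPM was added. Before any CPM was added this was the highest measured fold, but *smarcad1b* reached 10 CPM in the mutant library only. With 1 CPM added *smarcb1b* was the highest measured member, at a log2 ratio of 0.943 against 0.940 for *smarcad1b*. *smarcal1*, which remodels stalled replication forks, was at 25.5 against 36.5 CPM, 1.43-fold lower (1.16 to 1.77), and *atrx* at 94.2 against 109 CPM, 1.16-fold lower (1.03 to 1.29). A gene outside the name rule that the name table calls *atrxl* was at 179 against 167 CPM, with an interval that held 1 (0.983 to 1.17).

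Genes of the replication fork were described as well. In a list of 13 fork genes chosen after values were seen (*chaf1a*, *chaf1b*, *asf1ba*, *asf1bb*, *pcna*, *uhrf1*, *dnmt1* and *mcm2* to *mcm7*), all 13 were lower, against 39.2% of all measured genes, and 6 were at least 2-fold lower, against 2.56%. Their median was -0.99 on the log2 scale. A list chosen in this way cannot test for a difference, so its shares are a description only. *chaf1b*, which encodes the CAF-1 subunit of that name, was at 88.0 against 148 CPM. *chaf1a*, its partner, was at 203 against 204 CPM, with an interval that held 1 (0.918 to 1.08). The part of replication in the levels of *hells*, *smarcad1a* and *rbbp4* was not tested.

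Bromodomain genes that read acetylated histones were within 1.3-fold. *brd2a* was at 92.3 against 117 CPM, 1.27-fold lower (1.14 to 1.42). *brd3a* was at 98.4 against 112 CPM, 1.14-fold lower (1.02 to 1.28), and *brd3b* at 114 against 90.9 CPM, 1.26-fold higher (1.12 to 1.41). In mammals BRD3 binds acetylated GATA1. *brd1a* and *brd1b*, for a scaffold of a histone acetyltransferase, were at 21.5 against 17.1 CPM and 47.7 against 54.1 CPM, and both intervals held 1.

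The folds of relatives within a family were compared in pairs. The fold of one gene divided by the fold of its relative does not depend on library scaling, and it was computed for 19 listed pairs with both genes measured. Its counting interval left out 1 in 13 of them, and some genes are in more than 1 pair. Such an interval means unequal folds, which need not go in opposite directions. The share for pairs of unrelated genes was not computed, so 13 of 19 cannot be read as particular to relatives. Of all measured genes, 21.9% had a counting interval of their own fold below 1 and 40.0% above 1. The widest separation was that of *smarcad1a* and *smarcad1b*, with a ratio of folds of 0.293 (0.197 to 0.431). *smarcad1b* reached the minimum for a measured gene in the mutant library only. The FPKM of *smarcad1a* was 12.9 times that of *smarcad1b* in the sibling and 3.76 times in the mutant library. *smarcb1a* and *smarcb1b* had a ratio of 0.528 (0.401 to 0.693), *mta2* and *mta3* 0.585 (0.471 to 0.725), and *chd1* and *chd2* 0.606 (0.528 to 0.695). In these 4 pairs the gene with the higher mean FPKM had the lower fold, as it did in 9 of the 13.

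The gene with the higher FPKM did not have the lower fold in every family. In *smarcc1a* and *smarcc1b* (1.47, 1.12 to 1.93) and in *smarcd1* and *smarcd2* (1.49, 1.28 to 1.75) the gene with the higher FPKM had the higher fold, as in 4 of the 13. *baz1a* and *baz1b* had a ratio of 1.88 (1.61 to 2.18), and *brd3a* and *brd3b* one of 0.695 (0.593 to 0.816). For *chd4a* and *chd4b* it was 0.869 (0.765 to 0.988). The intervals of *smarca2* with *smarca4a* (0.611 to 1.28), *arid1aa* with *arid1ab* (0.805 to 1.45) and *chd6* with *chd7* (0.762 to 1.26) held 1, so a difference within these pairs was not detectable at this depth.

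**Figure D3:**
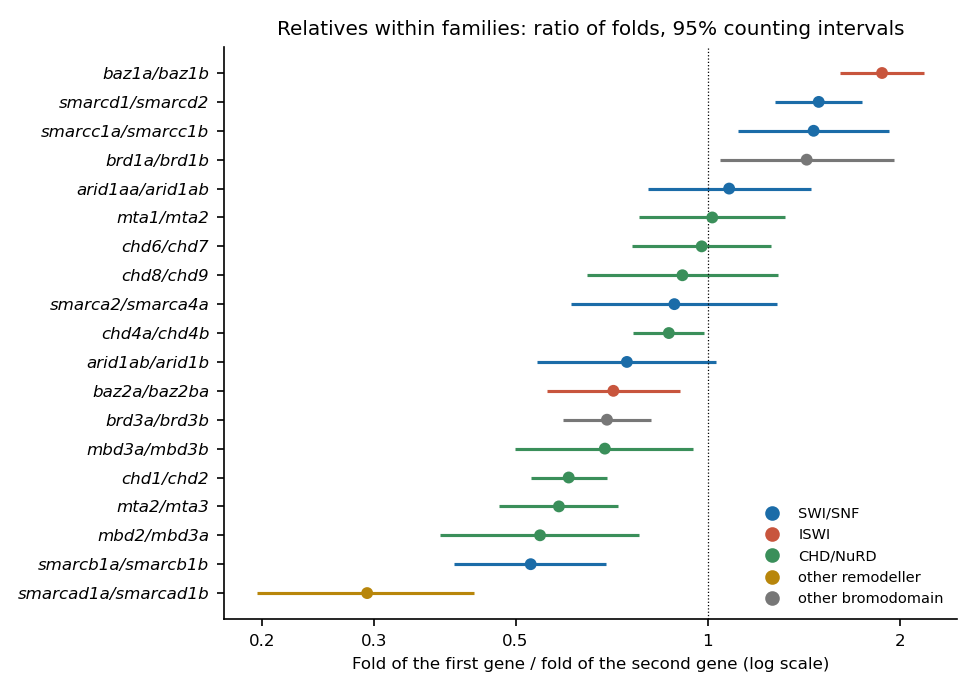
Ratio of folds (first gene over second, log axis) for 19 pairs of relatives, with exact 95% counting intervals and a dotted line at 1. Pairs run from *smarcad1a* with *smarcad1b* at 0.293 to *baz1a* with *baz1b* at 1.88.

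Subunits and partners that the name rule leaves out were described in 5 lists, and their counts stand beside the 8.17% of all measured genes at least 1.5-fold lower and the 21.5% at least 1.5-fold higher. Of 13 measured SWI/SNF partners 0 passed 1.5-fold in either direction, and the median log2 ratio was 0.15. Those with the largest ratios were *bcl7bb* (37.3 against 54.7 CPM), *actb1* (1407 against 2016 CPM), *bcl7a* (97.2 against 70.0 CPM) and *dpf2* (28.5 against 20.8 CPM). *actl6b*, the gene of a neuron-type subunit, named after its values were seen, had 0 and 1 counts.

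Of 5 measured ISWI partners and 5 NuRD partners 0 passed 1.5-fold, with medians of 0.25 and 0.22. *cecr2*, a bromodomain partner of ISWI, was at 235 against 318 CPM, and *pole3*, a histone-fold subunit of the ISWI complex CHRAC and of DNA polymerase epsilon, at 131 against 97.3 CPM. *hdac1*, the NuRD deacetylase, was at 711 against 561 CPM, 1.27-fold higher (1.21 to 1.33). *kdm1a*, a histone demethylase that works with NuRD, was at 310 against 233 CPM, 1.33-fold higher (1.24 to 1.43).

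Of 28 measured INO80, SWR and TIP60 partners, 3 were at least 1.5-fold higher (10.7%) and 1 lower (3.57%), both smaller shares than those of all measured genes, with a median of 0.06. *actr5*, an actin-related INO80 subunit, was at 24.5 against 13.97 CPM, *mrgbp* at 82.4 against 49.7 CPM and *dmap1* at 93.7 against 61.9 CPM. The lower one was *h2afva*, which encodes an H2A.Z-type histone that these complexes move, at 183 against 286 CPM, 1.56-fold lower (1.45 to 1.69). Of 13 measured genes around the other ATPases, 4 were at least 1.5-fold lower (30.8%), 1 of them 2-fold, and 1 at least 2-fold higher (7.69%, against 10.1% of all measured genes). *cdca7a*, whose human counterpart directs HELLS to chromatin, was at 186 against 388 CPM, 2.09-fold lower (1.94 to 2.24), and its paralog *cdca7b* at 24.0 against 47.6 CPM. *ercc6l*, a mitotic ATPase, was at 33.7 against 56.7 CPM, and *ercc6l2* at 12.4 against 4.71 CPM.

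The sorted cells carried red cell markers in both libraries, and most markers of muscle, hatching gland, notochord, nervous system and epidermis were higher in the mutant one, where 39.2% of all measured genes were lower and the rest higher. All 17 erythroid marker genes found were measured and lower in the mutant library, with a summed level of 42192 against 85571 CPM and a median log2 ratio of -0.89, and 0 were at 0. Muscle markers summed to 13617 against 4475 CPM, with 15 of 18 measured genes higher. Hatching gland and notochord markers summed to 5340 against 2225 CPM, neural markers to 533 against 247 CPM and epidermal markers to 3049 against 1882 CPM, with 10 of 10, 12 of 12 and 11 of 11 measured genes higher. Of these lists the markers with 0 counts were *neurog1* in the sibling library and *krt15* in both. *klf17* alone made up 2059 against 2027 CPM of the hatching gland and notochord sums, with an interval that held 1 (0.991 to 1.04). The other 9 measured genes of that list had intervals above 1. Myeloid markers summed to 1120 against 1409 CPM, with 9 of 13 lower, and endothelial markers to 280 against 222 CPM, with 7 of 10 higher. The part of these cell types in the levels of the remodelling genes, among them *smarcb1b*, *smarcad1b* and *mbd3b*, was not tested.

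**Figure D4:**
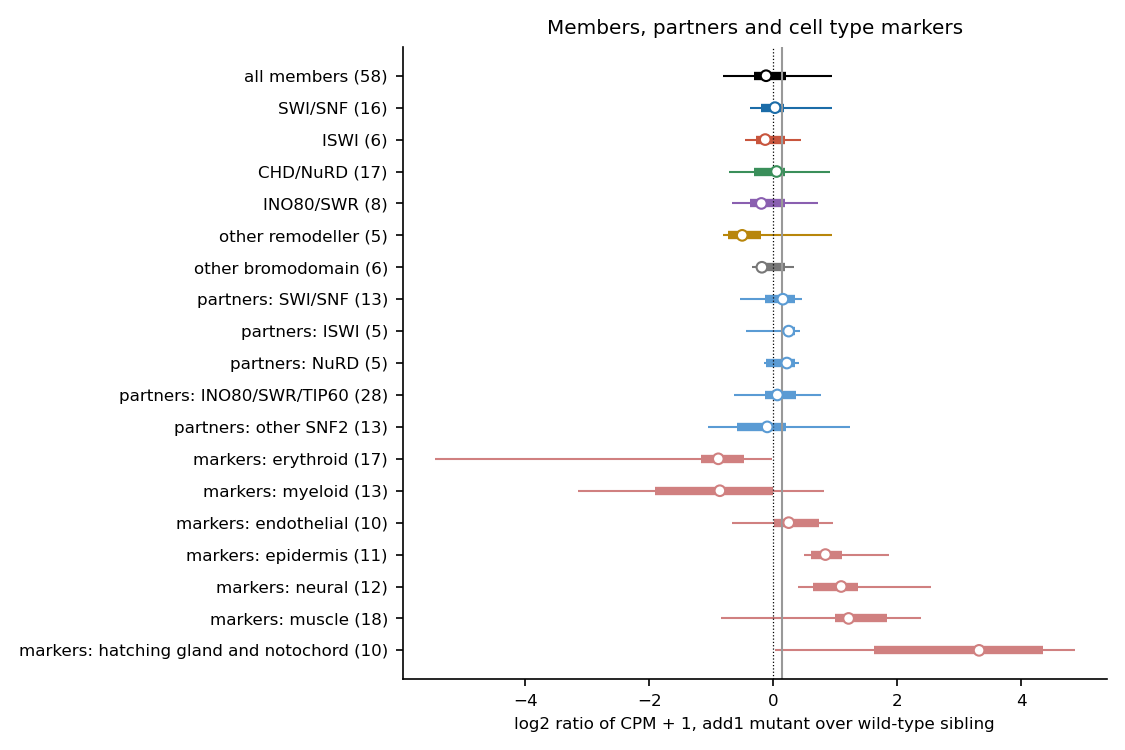
Log2 ratio of CPM + 1, mutant over sibling library, for the members, their families, partner lists and cell type marker lists, with the number of measured genes; circles are medians, thick bars the interquartile range and thin bars the full range. The medians of the families lie between -0.50 and 0.05, while that of the erythroid markers is -0.89 and that of the muscle markers 1.21.

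The 10 members under the minimum were *smarca1*, *smarcc2*, *smarcd3a*, *pbrm1*, *brd9*, *brd2b*, *chd3*, *chd5*, *ino80da* and the second *ino80e*. *brd9*, which marks a further form of SWI/SNF, had 34 and 52 counts, *smarcc2* 4 and 11, and *brd2b* 25 and 33. The members lay on 23 chromosomes, and 0 of them on the stretch of chromosome 21 up to *add1*. On its other side chromosome 21 held 2 members, *smarcb1b* from position 15496449 and *brd3a* from 18229683, where *add1* ends at 2042174. The part of linkage to *add1* in their levels was not tested. The spans of 11 measured members overlapped another gene of the table, and for 5 of these (*baz1a*, *brd3a*, *brd8*, *smarcal1* and *smarcb1a*) the other gene held at least 10% as many counts, so that the division of reads is uncertain. The name table gives the symbol *baz1a* to the gene that overlaps this member, and gives the member itself no symbol. That overlapping gene had 302 against 252 counts, 1.24-fold higher (1.04 to 1.47).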

How the data were processed

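Per the labels' protocols, a SMART-Seq HT kit served for the RNA and a BGISEQ-500 for sequencing. GRCz10 is the zebrafish build that the submitters' processing notes name; for the aligner, counter and strand setting the entry is: not given in the sources used here. Per the file headers, the table holds raw counts of reads for each gene and FPKM, both made by the authors. The reads carry no molecular identifiers, so PCR copies count as reads and intervals may be too narrow.

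The deposited counts were scaled to library totals. Ratios of CPM carry exact conditional (Clopper-Pearson) 95% intervals, and ratios of folds between relatives exact conditional intervals of the odds ratio (scipy 1.17.1, Python 3.11.15). Fold rules of 1.5 and 2 used CPM + 1 and a minimum of 10 CPM in the higher library (59.6 and 61.6 counts). A count of 0 was bounded by 3 counts. TMM factors were 1.07 (mutant) and 0.932 (sibling) (edgeR 4.0.16, R 4.3.3, for scaling only). The rules were tested on simulated counts that held counting error only. That test does not cover PCR copies or differences between preparations.

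All members may be named. Of other genes, *add1* and the up to 4 measured genes with the largest ratio in each partner list may be given. Genes whose name table symbol matches the rule may be given as well, and marker lists by sums and genes of highest CPM. The members and lists were chosen with earlier results of these data known, and the fork list after values were seen. Of the members, 66 were in the name table. The values of 1 measured member are not reported here, though it is in the counts and medians. Alternatives were other scalings, pseudocounts, minimums, FPKM, letter case, leaving out bromodomain genes and, added after seeing the data, genes found by name table symbol and calls by counting interval. No sequences were used here.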

Additional observations from a re-analysis of the deposited data

How the results depend on the processing

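No paired analysis was possible because each genotype was 1 library. For the same reason no library could be left out. The members' median, set against that of all measured genes (-0.25), stayed below 0 under every alternative run, from -0.33 with a minimum of 1 CPM to -0.04 with FPKM. Their own median of -0.12 was -0.31 with TMM and 0.05 with FPKM. Members at least 1.5-fold lower (5) and higher (5) were 9 and 3 with TMM or median-of-ratios scaling. They were 3 and 0 with a minimum of 50 CPM, and 3 and 2 with FPKM. Only 33 members were measured with either the 50 CPM minimum or FPKM, so a smaller count there need not be a smaller share. The shares of all genes with that minimum or with FPKM are not given here. Members at least 2-fold lower (0) were 1 with TMM or median-of-ratios scaling, and those at least 2-fold higher (0) were 1 with a pseudocount of 0.1 CPM or a minimum of 1 CPM. The INO80 and SWR median of -0.33 reversed to 0.52 with FPKM, where only 3 genes of that group (*ino80b*, *ino80c* and *ino80e*) reached the minimum. This followed mainly from that smaller set of genes, as FPKM and CPM gave each gene nearly the same ratio. *chd7* reversed to -0.083 with TMM and -0.081 with median-of-ratios scaling, *chd9* to -0.0044 and -0.0024, and *smarce1* to -0.038 and -0.035, as these scalings move every ratio down. Adding genes found by name table symbol gave -0.49 for the ATPases outside the main families. By counting intervals alone, 21 members were below 1 (36.2%, against 21.9% of all measured genes) and 16 above (27.6%, against 40.0%). Under all 4 scalings 21 were below 1 (36.2%, against 21.9%) and 10 above (17.2%, against 26.6%). The 21 could not change, as the other scalings only move ratios down. Depth limits the members with few reads: for *chd8*, with 80 and 79 counts, the interval of the ratio ran from 0.757 to 1.45.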
